A study of Homo sapiens with 12 samples.

Results

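eIF3b is a core subunit of eukaryotic translation initiation factor 3, and the transcripts recovered with it were taken from the peak lists of 2 eIF3b RNA immunoprecipitations (RIP). HepG2 cells, an established human liver cancer line, had been infected with a lentiviral pSIN4 construct that carries 3XFlag-eIF3b and had been kept as a stable line. The line was crosslinked with ultraviolet light, sonicated and precipitated with a Flag antibody (F3165), and ribosomal RNA was depleted before sequencing. The controls were input RNA of the same line, taken without an antibody. The 12 samples of the series came from HepG2 lines that each expressed a Flag-tagged protein, and 4 of them belonged to eIF3b, with 2 RIP and 2 input samples. A gene was counted as bound when its name stood in the lists of both RIP replicates. By this rule 6493 genes were bound, of 9140 genes in either eIF3b list and 10830 genes in any of the 6 RIP lists of the series. The protein came from a transgene, eIF3b was studied in 1 such line, and a peak is RIP signal above input on exons, so neither a direct contact nor the level of a transcript can be read from it.

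eIF3 is the largest of the initiation factors. It binds the small ribosomal subunit, helps to bring the initiator tRNA complex to it, and joins the cap-binding complex on the mRNA through eIF4G. eIF3a, eIF3b, eIF3g and eIF3i form one module of the complex, and eIF3b carries an RNA recognition motif and a propeller domain that sits near the mRNA entry channel. Beyond this general role, eIF3 has been reported to bind structured elements in the 5′ UTR of selected mRNAs, of which JUN and BTG1 are the usual examples, and to stay with ribosomes during early elongation.

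Replicate 1 had 20832 peaks on 8063 genes and replicate 2 had 20027 peaks on 7570 genes. The bound genes made up 71.0% of the genes in either list (95% Wilson interval 70.1 to 72.0, counting error only), 80.5% of the replicate 1 genes and 85.8% of the replicate 2 genes. A further 1570 genes were listed in replicate 1 alone and 1077 in replicate 2 alone. Peaks had a median length of 210 bases in replicate 1 and 181 bases in replicate 2, and 44.5% and 40.0% of them joined more than 1 exon. Their median fold enrichment of RIP over input was 3.20 and 2.94. Of 20020 protein coding genes, 6455 were bound, which is 32.2%, and of the 10743 protein coding genes with a peak in any list of the series 60.1% were bound. The first of these shares also counts genes with no peak in any list, and it is the background for the gene classes described later. The second is given for some of them there and in the section on processing.

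Agreement between the lists went with the p-value of the peaks. Each list was split into 10 equal groups by p-value. In the group of replicate 1 peaks with the smallest p-values, 98.3% overlapped a replicate 2 peak by at least 1 base, and in the group with the largest 26.2% did. The shares for replicate 2 peaks were 97.4% and 34.4%. Median peak length fell over the same groups, from 597 to 61 bases in replicate 1 and from 539 to 61 in replicate 2. The part of peak length in the overlap was not tested. Over the whole lists 59.6% of replicate 1 peaks and 65.3% of replicate 2 peaks overlapped, while most of the weak peaks still lay on genes that the other list also held. In the group with the largest p-values, 80.6% of replicate 1 peaks and 84.7% of replicate 2 peaks were on such genes. Peaks that overlapped, 26.2% and 34.4% of these groups, were not taken out of these shares. Genes of 1 list had weaker evidence than bound genes: the median of the smallest log10 p per gene was -4.54 against -16.1 in replicate 1 and -3.81 against -9.28 in replicate 2. High folds were often found with weak p-values. Of the peaks of at least 15-fold, 53.6% in replicate 1 and 64.9% in replicate 2 had exactly the fold and p-value of another peak, and in replicate 1 the commonest such pair, 15.1-fold with a log10 p of -3.27, occurred 134 times.

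**Figure D1:**
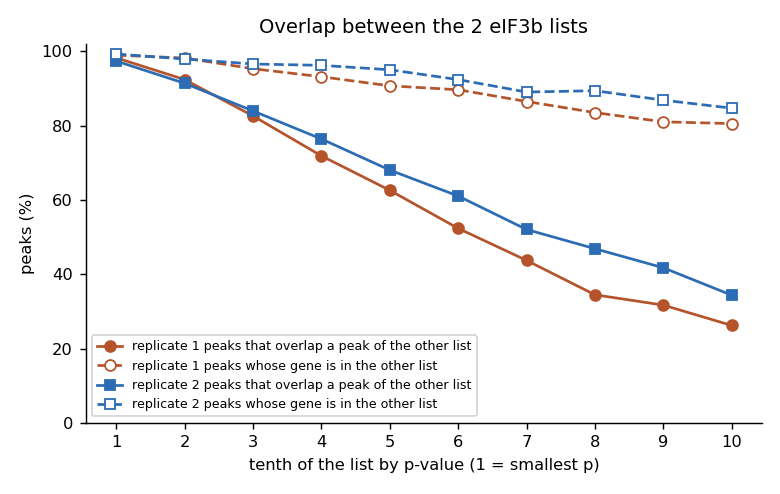
Percent of peaks of each eIF3b list that overlapped a peak of the other list by at least 1 base (solid lines) or lay on a gene of the other list (dashed lines), for 10 equal groups of the list from the smallest to the largest p-value. Overlap fell from 98.3% to 26.2% in replicate 1 and from 97.4% to 34.4% in replicate 2, whereas more than 80% of peaks in every group lay on a gene of the other list.

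Replicate 1 held erythroid and platelet genes at high folds that replicate 2 did not list. Beta globin (HBB) had 1 peak of 1700-fold, epsilon globin (HBE1) 1 peak of 672-fold, delta globin (HBD) 2 peaks of up to 901-fold, and ALAS2, the erythroid enzyme that starts haem synthesis, a peak of 975-fold, and none of these genes was in the replicate 2 list. Of 28 erythroid genes, a list drawn up after the values were seen, 7 had a replicate 1 peak, between 4.27 and 1700-fold, and none had one in replicate 2. Over all protein coding genes 40.0% had a replicate 1 peak and 37.6% a replicate 2 peak, so the erythroid genes were not listed in replicate 1 beyond the background, and it was their folds that stood out. Of 24 platelet genes, listed in the same way, 14 had a replicate 1 peak, between 12.4 and 474-fold, and 1, GP1BA, had one in replicate 2. Peaks of at least 20-fold in replicate 1 were on 6 of the erythroid and 10 of the platelet genes, and on 3.36% of all protein coding genes. In replicate 2 such peaks were on none of either list and on 2.01% of all protein coding genes. The platelet integrin ITGA2B reached 75.5-fold, its partner ITGB3 53.5-fold and the platelet tubulin TUBB1 31.6-fold in replicate 1. HBA2, HBG1, HBG2 and KLF1 had no peak in either list, and of 14 leukocyte genes only LYZ and CSF3R were listed, in both replicates and at 1.26 to 6.18-fold. Folds of RIP over input do not measure levels, and in bulk RNA fewer cells of a type and less RNA per cell cannot be told apart in any case. The part of these genes in any other difference between the replicates was not tested. Without the erythroid and platelet lists 6492 genes were bound and replicate 1 had 1550 genes of its own. Of the 19 genes with at least 50-fold enrichment that were in replicate 1 alone, 8 were on neither list, while replicate 2 had no gene of its own at that fold.

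Of 16 hepatocyte and HepG2 markers 9 had a peak in each list and 8 in both, among them the apolipoproteins APOA1, APOA2 and APOB, the protease inhibitor SERPINA1, the fibrinogen chain FGA and the transcription factors HNF4A and FOXA2. ALB, AFP, APOH, TTR, TF and FGG had no peak in either, which says only that RIP signal was not called above input there. None of 5 blood markers had a peak. Of 4 endothelial markers PECAM1 and VWF were in both lists, and of 4 neuronal markers TUBB3 was in both and SYP in replicate 2. Over all protein coding genes 40.0% had a peak in replicate 1, 37.6% in replicate 2 and 32.2% in both. Beside these shares the counts of such short lists are a description, and no cell type is read from them.

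The base composition of the peaks differed between the replicates. Mean GC content was 58.1% ± 9.99 (SD over peaks) in replicate 1 and 54.1% ± 11.2 in replicate 2. Peaks that overlapped one of the other list had a mean of 57.0% in replicate 1 and 57.2% in replicate 2. Such peaks share bases between the lists, so the way they were chosen holds these 2 means close. Peaks that overlapped none had a mean of 59.7% in replicate 1 (8411 peaks) and 48.3% in replicate 2 (6942 peaks). With 1 list on each side this difference has no replicate error, and it is given as a description. The peaks printed next, read from GRCh38 5′ to 3′ on the transcript strand, show what such sequences look like. They are the peaks of 1 exon, wholly in coding sequence and between 90 and 300 bases long, that had the smallest p-values on their side, and capitals mark runs of at least 4 bases that are all G or C. The pair from peaks found in both lists came from the fibrinogen alpha chain FGA (chr4:154586311-154586580, minus strand, 58.1% GC, 2.12-fold in replicate 1) and the linker histone H1-4 (chr6:26156679-26156912, plus strand, 61.5% GC, 1.80-fold).
FGA: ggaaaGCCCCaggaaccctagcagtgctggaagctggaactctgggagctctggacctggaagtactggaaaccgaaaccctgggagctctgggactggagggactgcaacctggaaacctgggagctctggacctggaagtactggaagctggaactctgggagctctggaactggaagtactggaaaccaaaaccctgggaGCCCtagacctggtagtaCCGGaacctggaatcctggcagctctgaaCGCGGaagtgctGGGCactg
H1-4: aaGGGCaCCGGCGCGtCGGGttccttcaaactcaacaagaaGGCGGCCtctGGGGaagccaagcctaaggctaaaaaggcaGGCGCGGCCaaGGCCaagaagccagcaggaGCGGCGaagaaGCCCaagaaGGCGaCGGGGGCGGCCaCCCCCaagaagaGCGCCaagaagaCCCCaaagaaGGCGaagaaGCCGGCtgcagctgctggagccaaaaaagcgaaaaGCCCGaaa

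The genes found in replicate 1 alone gave peaks on the plasma protease inhibitor A2M (chr12:9091307-9091426, minus strand, 57.5% GC, 1.16-fold), the hypoxia-induced carbonic anhydrase CA9 (chr9:35674037-35674276, plus strand, 57.9% GC, 5.19-fold) and the glutathione peroxidase GPX1 (chr3:49357467-49357700, minus strand, 64.1% GC, 1.58-fold).
A2M: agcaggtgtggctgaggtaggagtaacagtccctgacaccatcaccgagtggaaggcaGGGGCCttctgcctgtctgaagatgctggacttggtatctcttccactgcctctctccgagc
CA9: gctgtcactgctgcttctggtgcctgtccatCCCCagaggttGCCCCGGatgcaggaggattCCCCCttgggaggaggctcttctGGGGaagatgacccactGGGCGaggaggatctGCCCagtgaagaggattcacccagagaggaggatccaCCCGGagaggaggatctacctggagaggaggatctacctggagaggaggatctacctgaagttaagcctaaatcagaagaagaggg
GPX1: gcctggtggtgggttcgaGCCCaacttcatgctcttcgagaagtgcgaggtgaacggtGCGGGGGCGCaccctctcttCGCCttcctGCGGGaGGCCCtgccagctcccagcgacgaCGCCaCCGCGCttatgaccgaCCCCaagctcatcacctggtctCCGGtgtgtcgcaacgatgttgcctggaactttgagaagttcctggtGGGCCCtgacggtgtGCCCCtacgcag

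The genes found in replicate 2 alone gave peaks on the selenium carrier SELENOP, listed as SEPP1 (chr5:42801041-42801250, minus strand, 48.6% GC, 1.57-fold), the Cajal body protein gene COIL (chr17:56950614-56950883, minus strand, 37.8% GC, 4.74-fold) and the BRCA1-A complex gene ABRAXAS1 (chr4:83462515-83462812, minus strand, 37.6% GC, 4.10-fold). Each of them has a single run in capitals.
SELENOP: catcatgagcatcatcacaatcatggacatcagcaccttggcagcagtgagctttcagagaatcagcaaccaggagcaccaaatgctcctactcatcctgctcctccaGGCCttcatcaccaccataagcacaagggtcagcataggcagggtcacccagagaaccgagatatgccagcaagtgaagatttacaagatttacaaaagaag
COIL: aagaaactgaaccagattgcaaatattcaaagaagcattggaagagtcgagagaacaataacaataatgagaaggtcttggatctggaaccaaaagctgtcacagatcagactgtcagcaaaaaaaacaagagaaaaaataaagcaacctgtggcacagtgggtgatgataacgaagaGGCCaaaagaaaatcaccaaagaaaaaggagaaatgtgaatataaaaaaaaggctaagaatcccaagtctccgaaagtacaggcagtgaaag
ABRAXAS1: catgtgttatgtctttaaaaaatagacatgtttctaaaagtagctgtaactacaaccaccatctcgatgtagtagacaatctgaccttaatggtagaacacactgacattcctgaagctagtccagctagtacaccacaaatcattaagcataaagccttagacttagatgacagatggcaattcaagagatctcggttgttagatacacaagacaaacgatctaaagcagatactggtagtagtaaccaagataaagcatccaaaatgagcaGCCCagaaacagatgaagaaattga

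The genes of a single list differed in the GC content of their whole transcripts as well. Protein coding genes were split into 10 equal groups by this GC content. In the group with the lowest GC (median 37.1%), 81 genes were in replicate 1 alone and 261 in replicate 2 alone, and in the group with the highest GC (median 64.6%) the counts were 238 and 34. Genes of replicate 1 alone made up 59.3% of the 2625 protein coding genes in a single list, 23.7% in the lowest group and 87.5% in the highest. For bound genes the covered bases differed too. Their median went from 271 bases in the lowest group to 1051 in the highest in replicate 1, and from 441 to 543 in replicate 2. The share of replicate 2 peaks that overlapped a replicate 1 peak was 39.9% in the lowest group and 85.3% in the highest, whereas for replicate 1 peaks it was 68.0% and 56.8%. Replicate differences of the gene classes described later are given without adjustment for GC content unless stated. Their single-list counts are to be read beside the 59.3% of all single-list genes that were in replicate 1.

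**Figure D2:**
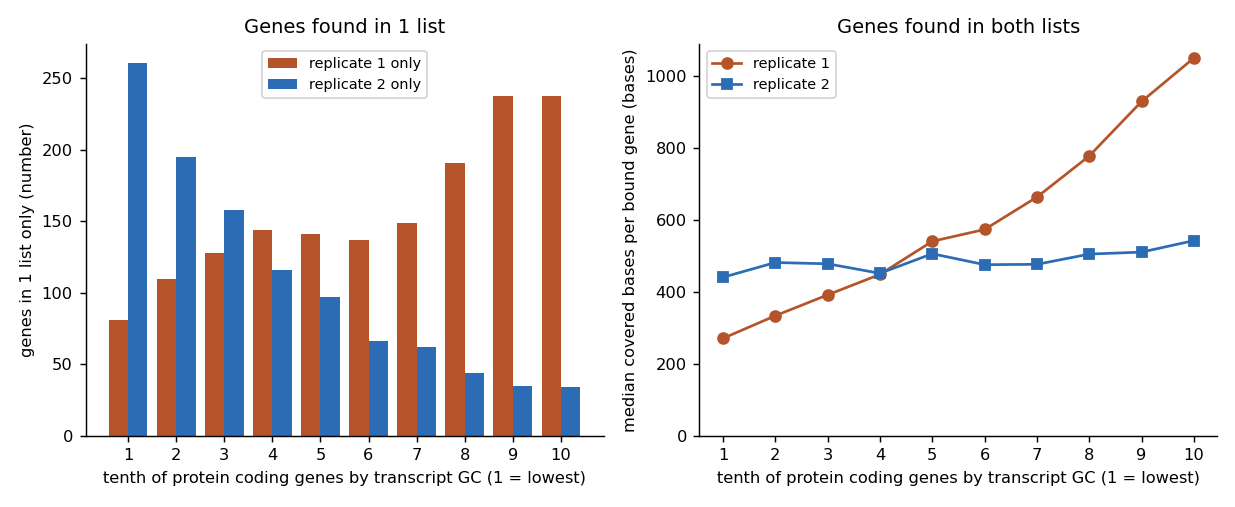
Protein coding genes in 10 equal groups by the GC content of their canonical transcript: the number of genes listed in 1 replicate only (left, bars) and the median bases under peaks per gene for genes bound in both lists (right, lines). Replicate 1 only genes rose from 81 to 238 and replicate 2 only genes fell from 261 to 34 from the lowest to the highest group, and the median covered bases rose from 271 to 1051 in replicate 1 and from 441 to 543 in replicate 2.

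The word GCGGCG, searched on the transcript strand, was in 12.2% of replicate 1 peaks and 7.79% of replicate 2 peaks, and in 4.81% of consecutive windows of 200 bases along the canonical transcripts of the bound genes. GAAGAA was in 22.8% and 23.7% of peaks and in 14.4% of windows, and CTGCTG in 25% and 19.3% of peaks and in 14.9% of windows. TTTTTT was in 4.37% and 5.74% of peaks and in 12.2% of windows, and the poly(A) signal word AATAAA in 3.9% and 7.19% of peaks and in 8.70% of windows. In the replicate 2 peaks that overlapped no replicate 1 peak, GCGGCG was in 2.09% and AATAAA in 8.11%. Mean GC content was 49.2% in the windows, against 58.1% in replicate 1 peaks and 54.1% in replicate 2 peaks. Peaks also varied in length around the window length. Neither was adjusted for, so these shares are a description and no preference for a word is read from them.

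Most peaks lay in coding sequence. Of the peak centres that could be placed on a coding transcript, 61.1% in replicate 1 and 57.7% in replicate 2 were in coding sequence, 30.4% and 36.2% in the 3′ UTR and 8.56% and 6.12% in the 5′ UTR. By bases, coding sequence held 65.3% and 61.8% of the peaks, although it made up 47.4% of the canonical transcripts of the bound genes. The 5′ UTR held 7.31% and 5.26% of the peak bases against 4.67% of the transcripts, and the 3′ UTR 27.4% and 33.0% against 48.0%. The coding share was therefore above, and the 3′ UTR share below, its share of the transcripts in both replicates. Peaks in the 5′ UTR had the highest median fold in replicate 1, 4.12, and a median of 3.36 in replicate 2, where 3′ UTR peaks had 3.34.

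Along the transcript the centres were most frequent near the 5′ end. Of 10 equal stretches of the transcript the one at the 5′ end held 14.9% of replicate 1 centres and 12% of replicate 2 centres, and the one at the 3′ end held 4.71% and 5.51%. In the 5′ UTR replicate 1 had 1765 centres and replicate 2 had 1214. Of those, 75.1% of the replicate 2 peaks overlapped a peak of the other list and 51.2% of the replicate 1 peaks did. In the 3′ UTR the order was the other way round, with 7183 centres in replicate 2 and 6256 in replicate 1, and the 3165 peaks of replicate 2 that overlapped none had a mean GC of 45.6%.

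**Figure D3:**
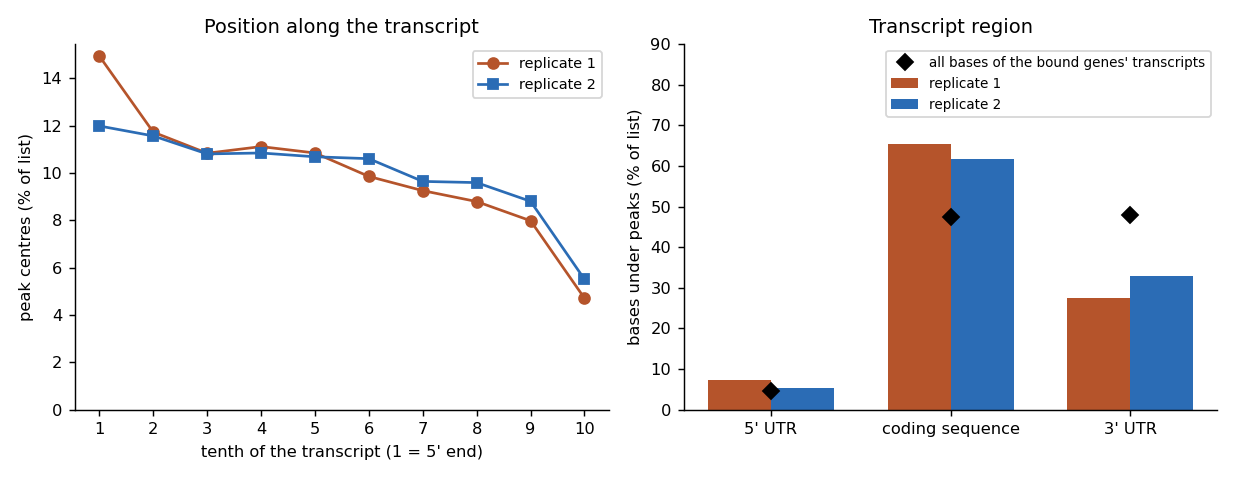
Left, peak centres in 10 equal stretches of the transcript from the 5′ end as a percentage of each eIF3b list. Right, bases under peaks by transcript region for each list (bars) beside the makeup of the canonical transcripts of the bound genes (diamonds). The 5′ stretch held 14.9% of replicate 1 centres and 12% of replicate 2 centres, and coding sequence held 65.3% and 61.8% of peak bases against 47.4% of transcript bases.

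A bound gene typically carried few peaks. The median was 2 peaks per gene in each replicate, with means of 2.88 and 2.86 and a maximum of 25 in each, and 30.8% of bound genes in replicate 1 and 32.7% in replicate 2 had a single peak. At least 6 peaks were found on 676 genes in replicate 1 and on 682 genes in replicate 2. The median bases under peaks were 575 in replicate 1 (quartiles 270 and 1171) and 482 in replicate 2 (quartiles 238 and 993), or 16.5% and 13.4% of the canonical transcript. Replicate 1 covered more bases on 3819 bound genes and replicate 2 on 2470, and the counts per class given later are to be read beside these. The lists covered at least 1 common base on 5719 bound genes (88.1%), and on the other 774 genes each list marked a different stretch. The median share of a gene's covered bases that both lists covered was 39.7%. Across the 6493 genes, which are not independent samples and share the same libraries, Spearman's rho between the replicates was 0.756 for covered bases, 0.65 for the number of peaks and 0.660 for the highest fold.

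Longer transcripts were bound more often. The bound genes had a median canonical transcript of 3925 bases and a median coding length of 1659 bases, against 2302 and 1062 bases for genes with no eIF3b peak. From the shortest to the longest of 10 equal groups of protein coding genes the share bound went from 5.93% to 52.2%. Because of this the share of a class is set beside the share that all protein coding genes of the same length groups reached, an alternative added after the data were seen. Genes of replicate 1 alone were shorter (2601 bases) than those of replicate 2 alone (3315 bases), whose GC was lower, 42.3% against 53.3%.

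**Figure D4:**
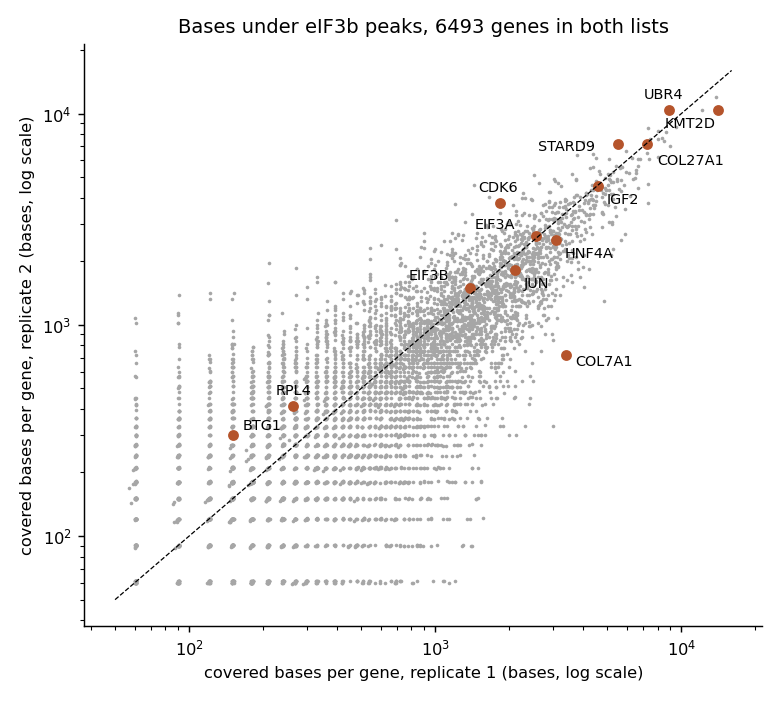
Bases under eIF3b peaks for each of the 6493 genes in both lists, replicate 1 against replicate 2, on log axes. Red points are named genes and the dashed line marks equal values. IGF2 and EIF3A lie close to the line, KMT2D and COL7A1 had more bases in replicate 1, and CDK6 and BTG1 had more in replicate 2.

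The strongest evidence in both lists was on IGF2 (chr11:2129112-2158391), a fetal growth factor that HepG2 cells express. Its single peak covered 4576 bases at 390-fold in replicate 1 and 4546 bases at 222-fold in replicate 2, and all 4546 bases were common to both. EIF3B (chr7:2354086-2380745) came next by p-value in both lists, with 4 peaks in replicate 1 and 5 in replicate 2. The first 10 genes also included the elongation factor EEF2, the nucleolar proteins NCL and RSL1D1, the chromatin-associated acidic proteins PTMA and ANP32B and the ribosomal proteins RPL4 and RPL3. Their highest folds were modest. EEF2 had 3.45-fold in replicate 1 and 2.20-fold in replicate 2, and covered 2237 and 1730 bases. NCL had 8.05 and 6.31-fold, PTMA 6.53 and 4.11-fold, RSL1D1 10.2 and 4.50-fold, and RPL4 2.24 and 2.41-fold.

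The tagged gene itself was covered from its first coding bases. The strongest EIF3B peak spanned 2 exons and reached 6.0-fold in replicate 1 (chr7:2354869-2360756, 599 bases) and 3.34-fold in replicate 2 (chr7:2354839-2360756, 629 bases), and 599 of these bases were common to both. The remaining peaks of EIF3B were between 1.14 and 1.46-fold. The construct carries the coding sequence, so reads from the transgene and from the resident gene cannot be told apart there. The strongest peak holds the coding start at base 2354922, and the following 300 coding bases of that exon (chr7:2354922-2355221, plus strand, 80.7% GC) show how rich in G and C the stretch is, with capitals as before.
EIF3B: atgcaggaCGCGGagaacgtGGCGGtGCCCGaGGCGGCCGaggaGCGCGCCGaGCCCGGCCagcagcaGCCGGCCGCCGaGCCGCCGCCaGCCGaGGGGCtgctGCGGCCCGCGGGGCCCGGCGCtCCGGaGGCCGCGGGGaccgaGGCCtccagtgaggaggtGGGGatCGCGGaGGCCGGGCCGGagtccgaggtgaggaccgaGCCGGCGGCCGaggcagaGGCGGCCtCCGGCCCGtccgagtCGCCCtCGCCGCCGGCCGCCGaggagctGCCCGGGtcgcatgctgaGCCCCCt

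By fold IGF2 was again among the leading 5 genes. The fold given for a gene is that of its highest peak, which need not be the peak with the smallest p-value. PUM2, a Pumilio RNA-binding repressor, had a 5′ UTR peak of 300 bases at 688-fold in replicate 1 and 307-fold in replicate 2, at the same coordinates. The hnRNP-like protein gene SYNCRIP had 305 and 176-fold, at peaks whose centres lay outside the exons annotated for this gene. Its other peaks were at 2.42-fold in replicate 1 and at most 4.31-fold in replicate 2. DESI1 had 139 and 184-fold in the 3′ UTR, and the mitochondrial unfoldase CLPX 117 and 131-fold in the 3′ UTR. The most peaks were found on long transcripts. STARD9, a kinesin with a lipid-binding domain, had 25 peaks in replicate 1 and 22 in replicate 2. The ubiquitin ligase UBR4 had 18 and 21, the histone methyltransferase KMT2D 12 and 22, and the kinase HIPK2 18 and 16. The widest coverage was on KMT2D with 14128 bases in replicate 1 and 10362 in replicate 2, PLEC with 13819 and 12031, PKD1 with 12107 and 10375, UBR4 with 8888 and 10360, and TNRC18 with 9527 and 8633.

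Of the 14 genes of the eIF3 complex and its near copies, 6 were bound (42.9%, interval 21.4 to 67.4), against 31.3% for genes of their length. EIF3A, the scaffold subunit, had 1 coding peak of 2578 bases at 11.9-fold in replicate 1 and 1 of 2638 bases at 9.70-fold in replicate 2. EIF3J, a loosely attached subunit, had 1 coding peak each, at 4.95 and 5.63-fold. EIF3D had 1.55 and 1.39-fold and EIF3I 1.86 and 1.88-fold. EIF3C was listed with 3.19 and 1.68-fold, but its near-identical copy EIF3CL was listed over almost the same bases with 3.08 and 1.69-fold. The source of these peaks is therefore uncertain. Both genes are among the 14, but the pair is counted only once among the 6 bound. EIF3G was in replicate 1 alone at 1.31-fold. EIF3E, EIF3H and EIF3M were in replicate 2 alone, at 1.91, 1.65 and 1.25-fold. EIF3F, EIF3K and EIF3L had no peak. By p-value EIF3B stood at rank 2 in both lists and EIF3A at rank 20 and 26.

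Of 44 other initiation factors and their regulators 29 were bound (65.9%, interval 51.1 to 78.1), beside 33.6% for genes of their length, with 3 in replicate 1 alone and 5 in replicate 2 alone. EIF4G1, the scaffold of the cap-binding complex, had 7 and 8 peaks over 2582 and 2193 bases, at 4.43 and 2.64-fold. PABPC4, a poly(A)-binding protein, had 7.29 and 5.14-fold with its strongest peak in the 5′ UTR. EIF2S3, the gamma subunit of eIF2, had 2.73 and 3.45-fold and covered 811 and 1498 bases. EIF5B, which joins the ribosomal subunits and was picked after its values were seen, had 11.3 and 14.7-fold over 2007 and 2096 bases.

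Of 16 elongation and termination factors 10 were bound (62.5%, interval 38.6 to 81.5, beside 35.3% for their length). Replicate 1 covered more bases on 9 of the 10 and fewer on none, where over all bound genes it covered more on 3819 and fewer on 2470. EEF1D, a nucleotide exchange factor, covered 1520 bases in replicate 1 and 537 in replicate 2. Of 37 aminoacyl-tRNA synthetases, which charge tRNAs, 20 were bound (54.1%, beside 33.6%), led by AARS1 with 2.85 and 1.95-fold.

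Of 87 cytosolic ribosomal proteins 21 were bound (24.1%, interval 16.4 to 34.1). Their transcripts are short, and genes of their length reached 14.7%. Of the 56 with a peak in any list of the series 37.5% were bound, where all protein coding genes had 60.1%. The bound members had low folds, with medians of 1.95 in replicate 1 and 1.98 in replicate 2, but 6 of them were among the 100 bound genes with the smallest worse rank by p-value. RPL4 stood at rank 14 and 4, RPL3 at 9 and 15, and RPS25 at 62 and 32. A further 9 were in replicate 1 alone, among them RPS19 (1.82-fold, rank 22) and RPS2 (2.00-fold, rank 70), and 6 in replicate 2 alone, among them RPS12 (1.36-fold) and RPS3A (1.33-fold). More bases were covered in replicate 2 on 15 of the 21 and in replicate 1 on 4. Ribosomal protein genes have many near-identical processed copies, so reads could be shared with them. Of 78 mitochondrial ribosomal proteins 19 were bound (24.4%, beside 18.6% for their length), led by MRPL30, which covered 599 and 841 bases.

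Of 75 ribosome biogenesis genes 55 were bound (73.3%, interval 62.4 to 82.0, beside 33.3% for their length), and 82.0% and 81.9% of their placed peak centres lay in coding sequence. NCL led them, followed by NPM1 with 1.98 and 2.10-fold and NOP58 with 5.51 and 6.0-fold. Of 91 splicing factors 64 were bound (70.3%, interval 60.3 to 78.7, beside 31.8%). RBM39 covered 1704 and 2599 bases at 6.35 and 19.1-fold, the serine-rich scaffold SRRM2 7318 and 8517 bases at 18.8 and 24.7-fold, and PNN 2355 and 2416 bases at 16.7 and 15-fold. Replicate 2 covered more bases on 38 of them and replicate 1 on 24. Of 52 DEAD and DEAH box helicases 34 were bound (65.4%, beside 38.4%), led by DDX39B with 3.53 and 4.40-fold.

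Of 112 chromatin remodellers and histone lysine modifiers 89 were bound (79.5%, interval 71.1 to 85.9, beside 44.4%), with means of 4.98 and 5.36 peaks per gene. ARID3A had 7.92 and 4.30-fold and the SWI/SNF ATPase SMARCA4 5.59 and 4.55-fold. Of 98 histone genes 9 were bound (9.18%, beside 8.35%), and they included H1-10 and H3-3B. Of 554 C2H2 zinc finger genes 225 were bound (40.6%, beside 39.5%), with 62 in replicate 1 alone and 61 in replicate 2 alone, a replicate 1 share of 50.4% (interval 41.7 to 59.1) where all genes had 59.3%. Within the third of genes with the lowest GC, where 319 of the zinc finger genes lie, their share was 37.1% and that of all genes 35.3%.

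Of 32 hepatocyte transcription factors 26 were bound (81.2%, interval 64.7 to 91.1, beside 35.8% for their length). HNF4A, a master regulator of hepatocyte genes, had 5 peaks in each list over 3082 and 2514 bases, at 6.16 and 4.38-fold. CEBPB had 4.94 and 2.65-fold, and PROX1 3 peaks at up to 22.4-fold in replicate 1 and 10 peaks at up to 29.4-fold in replicate 2. NR1H3 was in replicate 1 alone, and NR1I3, NR5A2 and RORA in replicate 2 alone. Of the secreted plasma proteins of the liver 31 of 87 were bound (35.6%, interval 26.4 to 46.1, beside 26.6%). Their folds were low, with medians of 2.11 and 1.78. APOA1 had 3.05 and 1.95-fold, APOE 2.31 and 1.93-fold and the complement factor C3 8 peaks in each list at up to 1.90 and 1.66-fold. Of the 31, 20 covered more bases in replicate 2 and 10 in replicate 1.

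Of 162 genes of xenobiotic and alcohol metabolism 30 were bound (18.5%, interval 13.3 to 25.2, beside 28.0%), led by the sulfotransferase SULT2A1 with 2.64 and 3.22-fold in the 3′ UTR. A further 19 were in replicate 1 alone and 7 in replicate 2 alone, but UGT1A genes share their last exons, and peaks of 1 position were listed under several of their names. Without genes whose peaks all had the position of a peak under another name, the counts were 13 and 7. Of 98 nuclear genes of the respiratory chain and ATP synthase 14 were bound (14.3%, beside 16.4%), and of 39 proteasome subunits 10 (25.6%, beside 22.5%). Of 39 sterol and fatty acid synthesis genes 21 were bound (53.8%, beside 36.6%), and fatty acid synthase (FASN) covered 7473 and 7593 bases at 5.52 and 3.85-fold. Of 25 glycolysis genes 10 were bound (40%, beside 30.4%), led by HK2 with 7.45 and 5.27-fold in the 3′ UTR.

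**Figure D5:**
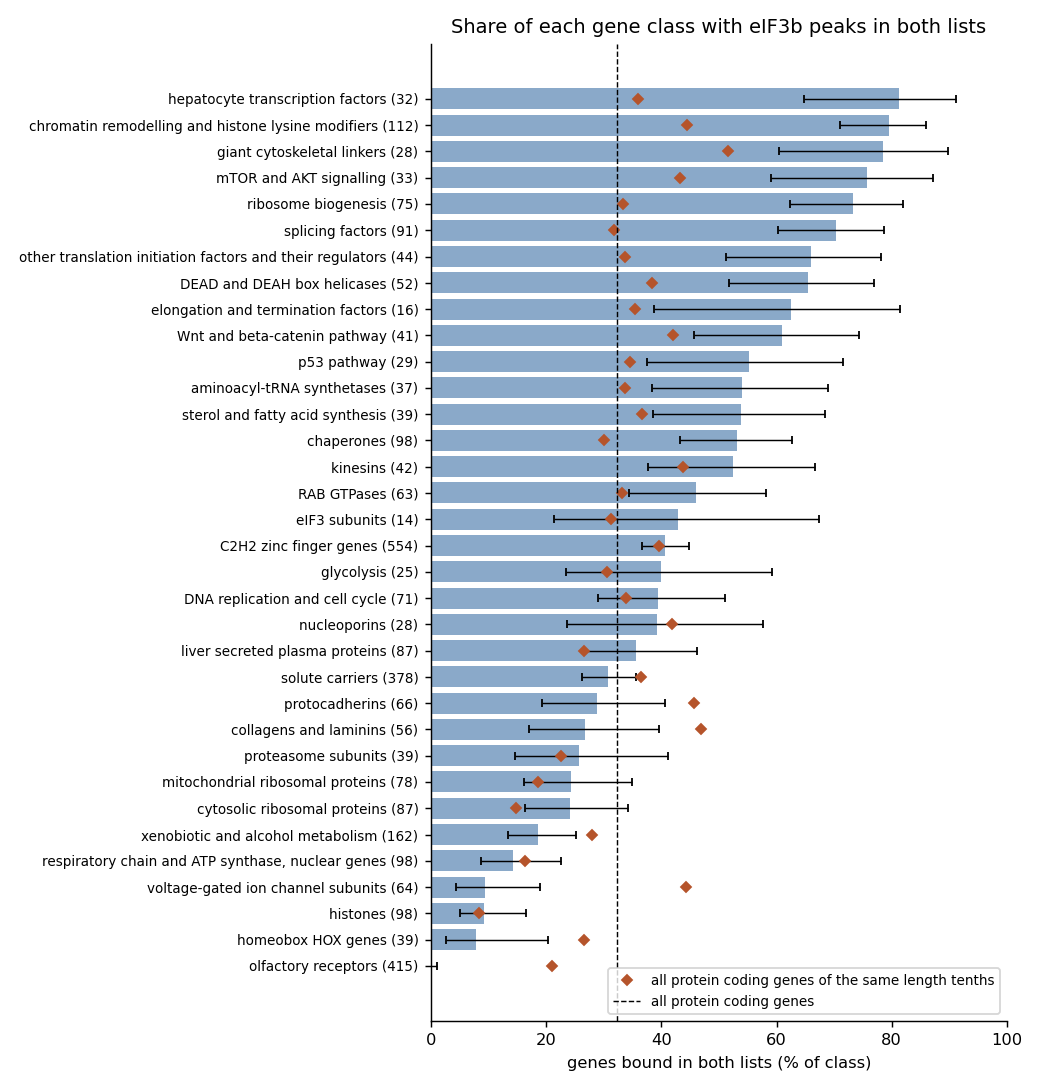
Percent of each gene class bound in both eIF3b lists (bars, with 95% Wilson intervals for counting error) beside the share of all protein coding genes of the same length groups (diamonds) and of all protein coding genes (dashed line, 32.2%). Class sizes are in brackets. Hepatocyte transcription factors (81.2%), chromatin modifiers (79.5%) and giant cytoskeletal linkers (78.6%) lie at the top, and histones (9.18%), HOX genes (7.69%) and olfactory receptors (0%) at the bottom.

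Of 33 genes of mTOR and AKT signalling 25 were bound (75.8%, interval 59.0 to 87.2, beside 43.3%). IGF1R, the receptor that IGF2 activates, had 14 and 12 peaks, the strongest in the 5′ UTR with 60.2 and 48.3-fold, and ranked 27 and 20 by p-value. Of 41 Wnt and beta-catenin genes 25 were bound (61.0%, beside 42.0%), led by the feedback inhibitor NKD1 with 8 peaks in each list at 6.99 and 5.14-fold. Of 29 genes of the p53 pathway 16 were bound (55.2%, beside 34.6%). Both p53 antagonists led them through their 3′ UTR, MDM2 with 10 peaks in each list at 14.2 and 11.6-fold and MDM4 with 117 and 22.7-fold.

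Of 28 giant cytoskeletal linkers 22 were bound (78.6%, interval 60.5 to 89.8, beside 51.6%), with means of 8.23 and 7.64 peaks per gene, and replicate 1 covered more bases on 18 of them and fewer on 4. MYH9, a non-muscle myosin, had 11.7 and 7.41-fold, the desmosomal DSP 3.7 and 4.47-fold and the spectrin SPTBN1 10 and 11 peaks. Of 56 collagens and laminins 15 were bound (26.8%, interval 17.0 to 39.6, beside 46.8%), which is 68.2% of the 22 with a peak in any list. Replicate 1 covered more bases on 13 of the 15 and held the 4 genes of a single list. These 4 lie in the third of genes with the highest GC, where 84.9% of all single-list genes were in replicate 1 alone. COL7A1, the anchoring fibril collagen, picked after its values were seen, had 16 peaks over 3402 bases in replicate 1 and 2 peaks over 721 bases in replicate 2. COL27A1 covered 7242 and 7211 bases at 30.1 and 46.2-fold, COL18A1 5128 and 4830 bases and COL9A3 2305 and 2335 bases. Of 42 kinesins 22 were bound (52.4%, beside 43.8%). Of 63 RAB GTPases 29 were bound (46.0%, beside 33.1%), and replicate 2 covered more bases on 19 of them. Of 378 solute carriers 116 were bound (30.7%, beside 36.5%). Replicate 1 covered more bases on 83 of them and replicate 2 on 30, where over all bound genes the counts were 3819 and 2470. The ornithine carrier SLC25A15 led the class with 70.2 and 76.3-fold in the 3′ UTR.

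None of 415 olfactory receptors had a peak in any list of the series, which for eIF3b allows a share of up to 0.92% (upper 95% Wilson limit). Of 64 voltage-gated ion channel subunits 6 were bound (9.38%, beside 44.3%) and of 39 HOX genes 3 (7.69%, beside 26.5%). Only 19 of these channel genes and 10 of these HOX genes had a peak in any list of the series. Of 66 protocadherins 19 were bound (28.8%, beside 45.6%). The gamma cluster shares its last exons, and without genes whose peaks all had the position of a peak under another name 2 of 45 were bound. In all lists of eIF3b there were 22 such positions in replicate 1 under 49 names and 18 in replicate 2 under 36 names.

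JUN and BTG1, the reported eIF3 targets, were both bound, where genes of their length reached 41.9%. Both had their strongest peak in the 5′ UTR. JUN (chr1:58776845-58784048), a subunit of the transcription factor AP-1, had a 5′ UTR peak of 869 bases at 19.3-fold in replicate 1 and of 898 bases at 11.2-fold in replicate 2, with 839 bases common to both. In all it carried 4 and 2 peaks over 2099 and 1827 bases, and ranked 36 and 44 by p-value. BTG1 (chr12:92140278-92145846), an antiproliferative adaptor of mRNA deadenylation, had a single 5′ UTR peak in each list, of 151 bases at 1.86-fold and of 301 bases at 2.14-fold, and the shorter peak lay within the longer. It ranked 4313 and 2473 by p-value, below JUN in both replicates. With peaks of at least 2-fold BTG1 was no longer bound.

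The genes with the strongest p-values in 1 list alone complete the comparison. For replicate 1 they were HBE1, HBB, RPS19, HBD and RPS2, so 3 of the 5 were globins. For replicate 2 they were RPS12, SELENOP, EIF3E, RPS3A and EIF3H, at 1.33 to 1.91-fold. Of those 10 genes only the globins exceeded 2.00-fold.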

How the data were processed

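Each eIF3b RIP sample has 1 deposited peak list. Per the labels the reads were aligned to GRCh38 with STAR, and the study names exomePeak with default parameters as the caller of RIP over input. Versions, the annotation and which input went with which RIP are not given in the sources used here. Input samples have no file of their own, and read depth is unknown, so no interval is given for a single peak. The authors' p-value stands in the deposited column score, its log10 values are deposited as scores (lg.p, lg.fdr), and the deposited fold is the ratio of RIP over input. The adjusted p-value reached 0.0479 and 0.0501.

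Gene names were matched to GENCODE release 44 within 5000 bases of the listed position (8726 current, 369 older, 45 unmatched names). Each peak was placed by its centre. Covered bases are the merged exon blocks. Shares have 95% Wilson intervals for counting error only. Python 3 scripts used pandas, numpy, scipy and pysam, and interval functions were tested on simulated data. Genes and gene lists were chosen with earlier results of these data known, and no test was made, since 2 lists allow none. The study calls them biological replicates. Genes named are EIF3B, JUN, BTG1, the 10 bound genes with the smallest worse rank by p-value over both lists, the 5 each with the highest lower fold, most peaks, most covered bases, or smallest p in 1 list alone, and up to 3 per class (all, where a class has at most 15). Others were chosen after their values were seen. Genes on chromosome Y were left out of the naming. Some genes that the rule names are not reported here. The alternatives were stricter peak thresholds, other counting units, leaving out a replicate and, for classes, the background of genes with a peak in any list. Added after the data were seen were the background by transcript length, names merged by current symbol (6487 bound), and leaving out genes at shared positions or the erythroid and platelet genes.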

Additional observations from a re-analysis of the deposited data

How the results depend on the processing

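With 2 lists and unknown depth, no result has a replicate error, and intervals cover counting error only. No paired analysis was possible because no result comes from a test. Bound genes numbered 2687 with peaks of at least 4-fold enrichment and 2298 with the 5000 peaks of smallest p per list, and 7570 to 8063 with 1 list alone. At 4-fold, 2-fold and 5000 peaks in turn, the share of genes in either list that were in both was 47.2%, 65.9% and 60.0%, the coding share of centres 50.2%, 55.9% and 63.3%, the share of replicate 1 peaks that overlapped a replicate 2 peak 40.7%, 54.7% and 64.2%, and the GC difference between replicates 5.77, 4.58 and 4.42 points. The median number of peaks per bound gene was 1.5 at 4-fold and 1 at 5000 peaks, where the median covered bases were 733.5. That median, 528.5 over both lists, was 392 to 447 bases with 1 list alone, where every listed gene enters. The coding share was 63.5% by bases and 62.4% by the strongest peak per gene, and 57.7% to 61.1% with 1 list alone. With an overlap of at least 50%, 47.8% of replicate 1 peaks were shared. The GC difference of 3.99 points became 11.4 over peaks that overlap none, 3.17 in bound genes and 3.03 in coding peaks. It was -0.16 over peaks that overlap one, which share bases by the way they were chosen. The share of a class bound stayed within its interval for 24 of 35 classes at 2-fold, 6 at 4-fold and 5 at 5000 peaks. All protein coding genes stood at 27.5%, 13.3% and 11.4% there, so only the place of a class beside that background can be compared. At 4-fold, aminoacyl-tRNA synthetases (0%), liver plasma proteins (3.45%), sterol and fatty acid synthesis (5.13%) and cytosolic ribosomal proteins (5.75%), among others, lay below 13.3%. Other initiation factors (15.9%) and ribosome biogenesis (16.0%) lay near it. Hepatocyte transcription factors (31.25%), splicing factors (34.1%) and chromatin modifiers (45.5%), among others, lay above.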

Other observations

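A few transcripts without an annotated coding role were bound in both lists, 15 in all. AHSA2P, a unitary pseudogene of a chaperone activator, had 4 peaks over 2130 bases at up to 34.4-fold in replicate 1 and 3 peaks over 2368 bases at up to 22.0-fold in replicate 2. C22orf46P had 6 and 5 peaks at up to 52.2 and 26.4-fold, and MST1L, a copy of the gene for macrophage stimulating protein, had 3 and 4 peaks that covered 1470 bases in each list at up to 19.2 and 25-fold. The long non-coding RNA MIR1915HG had 3.84 and 5.87-fold. Names and gene types are those of GENCODE, which can differ from the annotation behind the lists.

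Cell cycle genes, nucleoporins and chaperones were described by the same rule. CCND1, the G1 cyclin, had 6 and 7 peaks over 2345 and 2466 bases at up to 7.25 and 4.72-fold. Its kinase partner CDK6 had 6 peaks over 1835 bases in replicate 1 and 13 peaks over 3789 bases in replicate 2. The nucleoporin NUP43 ranked 29 and 27 by p-value through its 3′ UTR, at 51.2 and 23.2-fold. The endoplasmic reticulum chaperones CALR and CANX ranked 52 and 54 in replicate 1 and 82 and 60 in replicate 2, and the heat shock protein gene HSPA1A, which has a near-identical copy, had the peak with its smallest p-value in the 5′ UTR at 5.22 and 7.59-fold.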
